A study of Rattus norvegicus with 6 samples.

Results

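The miR-29 family of the rat comprises 3 mature microRNAs, rno-miR-29a-3p, rno-miR-29b-3p and rno-miR-29c-3p, which were chosen by name among the 758 rat microRNAs of an Agilent single-colour array. All 3 were on the array. They were measured in plasma from 3 healthy, untreated male Sprague-Dawley rats aged 10 weeks. From each rat, 3 mL of arterial blood was drawn from the abdominal aorta and 3 mL of venous blood from the postcava, the large vein that returns blood from the lower body, into EDTA tubes with an RNase inhibitor. Cells and debris were removed by 2 spins and a filter, so that the RNA is that of cell-free plasma. Each of the 6 plasma samples (3 arterial, 3 venous) was hybridized to 1 array, and samples with the same rat number come from the same animal. No disease, treatment or genotype differed between the groups.

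MicroRNAs are short RNAs that bind messenger RNAs and lower their translation and stability, mainly through their seed (bases 2 to 8 from the 5′ end). The miR-29 family is best known for repressing genes of the extracellular matrix, among them several collagens, elastin and fibrillin, and it falls in fibroblasts exposed to TGF-beta and in fibrotic heart, lung, liver and kidney. Plasma holds microRNAs released by many tissues and by blood cells, and the number of releasing cells and the amount released by each cannot be told apart in such samples.

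The mature sequences of the family are given because they define it and because they show how little separates 1 member from another on an array. They are RefSeq's for the GRCr8 assembly, written 5′ to 3′, with the seed in capitals.
rno-miR-29a-3p: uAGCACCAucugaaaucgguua
rno-miR-29b-3p: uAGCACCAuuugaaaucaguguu
rno-miR-29c-3p: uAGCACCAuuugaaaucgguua
The 3 members shared the seed AGCACCA, and no other of the 693 mature rat microRNA names in that table carried it. With positions counted from 1 at the 5′ end, rno-miR-29a-3p and rno-miR-29c-3p (22 bases each) differed at 1 position, C10U. From rno-miR-29a-3p to rno-miR-29b-3p (23 bases) there were 4 substitutions over the 22 bases compared, C10U, G18A, U21G and A22U. The last 6 bases of rno-miR-29b-3p, AGUGUU, are known as an element that directs this member to the nucleus in cultured cells, and the other two members end differently. Binding of 1 member to the probes of another was not tested, so that the signals reported for the members, and the likeness between them, may not be those of separate RNAs. The closest mature sequence outside the family, rno-miR-3590-3p, had 7 mismatches to each member.

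The members come from 4 hairpins in 2 clusters. Mir29a (chr4:60617955-60618042, minus strand) and Mir29b1 (chr4:60618334-60618414, minus strand) lie 291 bases apart, between the protein-coding genes Klf14 and Mkln1. Mir29b2 (chr13:109098831-109098911, plus strand) and Mir29c (chr13:109099359-109099446, plus strand) lie 447 bases apart, between Cd34 and Cd46, and both overlap the long noncoding RNA gene LOC102550527. The hairpins of rno-miR-29b-3p are shown, with the mature 3p arm in capitals, because both clusters make the same mature sequence.
Mir29b1: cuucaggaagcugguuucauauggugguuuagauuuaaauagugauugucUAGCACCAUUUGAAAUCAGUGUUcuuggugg
Mir29b2: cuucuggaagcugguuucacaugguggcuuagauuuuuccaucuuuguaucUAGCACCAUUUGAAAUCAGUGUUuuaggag
An array signal for rno-miR-29b-3p therefore sums whatever both clusters release. The other arms of the 4 hairpins differ from each other and have seeds of their own.
rno-miR-29a-5p: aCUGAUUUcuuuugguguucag
rno-miR-29b-1-5p: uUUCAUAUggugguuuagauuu
rno-miR-29b-5p: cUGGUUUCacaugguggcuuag
rno-miR-29c-5p: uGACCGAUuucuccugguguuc

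Each array carries 12128 spots for rat microRNAs. Feature Extraction, the scanner's software, called between 137 and 175 microRNAs detected on an array, 126 were detected on all 6 arrays and 557 on none. The median background-subtracted intensity of the 126 ranged from 17.2 (venous plasma, rat 3) to 52.9 (venous plasma, rat 2), and the arrays thus differed in overall brightness before normalization. The 4 arrays of rats 1 and 2 share a slide, and rat 3's pair is on a second one. Arterial and venous samples of a rat were therefore never on different slides.

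All 3 members were detected in all 6 plasma samples. Each was covered by 2 probes with 8 spots each, or 96 spots over the 6 arrays. For rno-miR-29a-3p all 96 spots were well above background, for rno-miR-29c-3p 88 were, and for rno-miR-29b-3p 60 were. No spot was saturated. The spots of 1 probe on 1 array agreed within a coefficient of variation of 3.37% (median) for rno-miR-29a-3p, 9.28% for rno-miR-29c-3p and 15.1% for rno-miR-29b-3p, so that rno-miR-29b-3p was the least precisely measured of the 3.

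The other arms were at background throughout. None of rno-miR-29a-5p, rno-miR-29b-1-5p, rno-miR-29b-5p and rno-miR-29c-5p was detected on any array. Their background-subtracted intensities ranged from -0.127 to 1.23 for rno-miR-29a-5p, from -0.806 to 0.447 for rno-miR-29b-1-5p, from -1.64 to -0.908 for rno-miR-29b-5p and from 0.534 to 2.5 for rno-miR-29c-5p. In the same units, the lowest array value was 47.2 for rno-miR-29a-3p, 7.25 for rno-miR-29b-3p and 9.0 for rno-miR-29c-3p. These are readings against each probe's own background and not relative amounts, since different probes differ in brightness for the same amount of RNA. No fold change between arterial and venous plasma is given for the 5p arms, because neither group was above background.

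**Figure D1:**
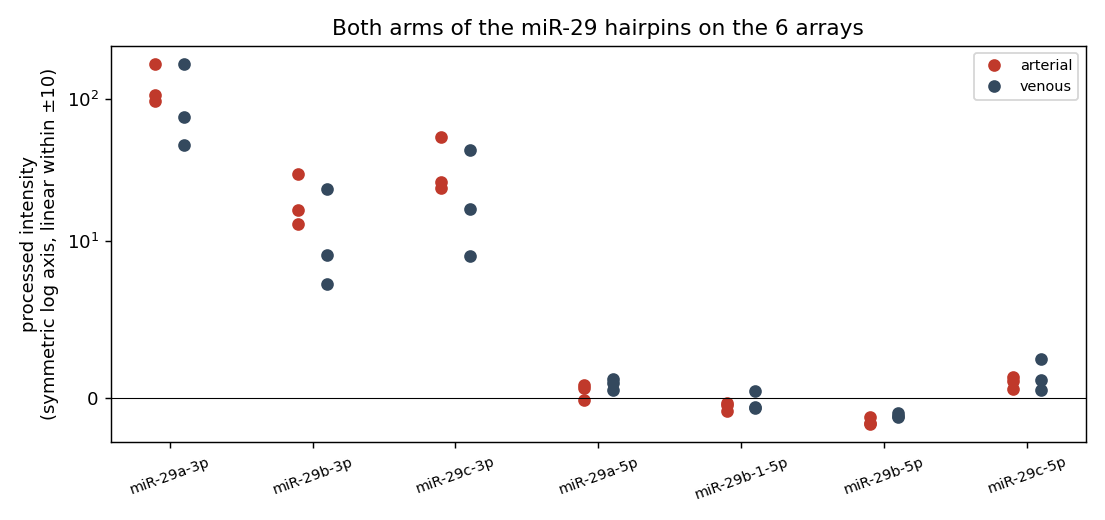
Background-subtracted intensity (symmetric log axis, linear within 10 of 0) of both arms of the miR-29 hairpins, 1 point for each of the 3 arterial and 3 venous arrays. The 3p arms lie between 7.25 and 177 and the 5p arms between -1.64 and 2.5 on every array.

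RefSeq annotates 3 further microRNAs on the opposite strand of the miR-29 hairpins, which were examined after their values had been seen. Their mature sequences, in lower case, are each the exact reverse complement of a stretch of a member.
rno-miR-3556a: cgauuucagauggugcua
rno-miR-3587: aacacugauuucaaauggugc
rno-miR-3556b: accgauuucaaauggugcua
These are complementary to rno-miR-29a-3p, rno-miR-29b-3p and rno-miR-29c-3p, in that order, and were detected on no array. Intensities ranged from -1.33 to -0.771 for rno-miR-3556a, from -2.53 to -0.791 for rno-miR-3587 and from -2.14 to -0.289 for rno-miR-3556b. Of the RNAs from these loci with probes on the array, the 3 members were thus the ones with a signal above background.

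In the background-subtracted intensities, before any normalization between arrays, all 3 members were brighter in arterial than in venous plasma of rats 1 and 3. For rno-miR-29a-3p the intensities in arterial and venous plasma were 106 and 74.6 in rat 1, 177 and 176 in rat 2, and 97.0 and 47.2 in rat 3. The arterial reading was thus 1.43 times the venous reading in rat 1, 1.00 times in rat 2 and 2.05 times in rat 3. For rno-miR-29b-3p they were 13.2 and 9.12 in rat 1, 29.6 and 23.3 in rat 2, and 16.5 and 7.25 in rat 3. For rno-miR-29c-3p they were 25.8 and 16.8 in rat 1, 53.6 and 43.8 in rat 2, and 23.7 and 9.0 in rat 3. Each member was brightest in rat 2 in both plasma types, and dimmest in the venous plasma of rat 3.

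Much of this was shared with the other microRNAs of the same arrays. The median log2 difference (arterial minus venous) over the 126 microRNAs detected on every array was 0.63 in rat 1, -0.29 in rat 2 and 0.84 in rat 3. Relative to that median, rno-miR-29a-3p differed by -0.12, 0.29 and 0.20 on the log2 scale in rats 1, 2 and 3. For rno-miR-29b-3p the values were -0.10, 0.64 and 0.35, and for rno-miR-29c-3p they were -0.01, 0.58 and 0.56. The members were thus above the common shift of their arrays in rats 2 and 3, and at or slightly under it in rat 1.

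Quantile normalization, the method of the study, gives the 6 arrays the same distribution of intensities, and the log2 of these values was used for the comparison. The normalized log2 intensity of rno-miR-29a-3p in rats 1, 2 and 3 was 6.41, 7.18 and 6.83 for arterial samples, and 6.69, 6.88 and 6.61 for venous samples. The groups overlapped, and the arterial samples were the more spread out, with the lowest and the highest of the 6 values among them. For rno-miR-29b-3p the arterial values were 3.30, 4.53 and 4.17 and the venous values 3.44, 4.14 and 3.57. Here rat 2 was highest and rat 1 lowest within each plasma type, and the groups again overlapped. For rno-miR-29c-3p the arterial values were 4.41, 5.37 and 4.68 and the venous values 4.76, 4.82 and 3.99. The lowest of these was the venous sample of rat 3, whose rno-miR-29c-3p spots were well above background in 8 of 16.

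**Figure D2:**
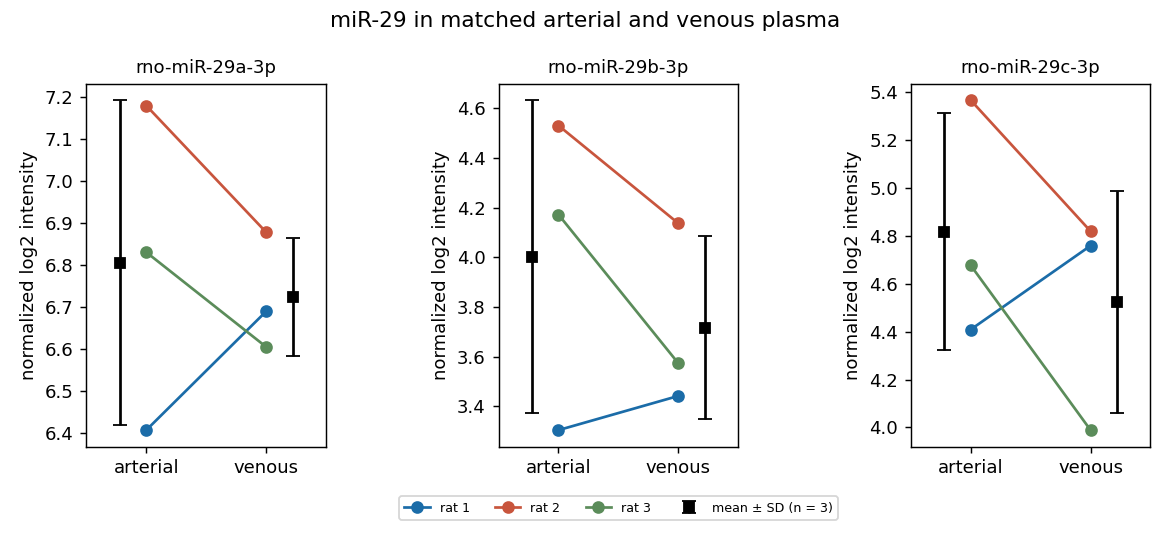
Normalized log2 intensity of each member in arterial and venous plasma; lines join the 2 samples of a rat, and squares with bars are the mean ± SD of the 3 samples of a plasma type. In all panels the line of rat 1 rises toward venous plasma and the lines of rats 2 and 3 fall.

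With all 3 rats, no difference of the family between arterial and venous plasma exceeded the spread between rats. The normalized log2 intensity of rno-miR-29a-3p averaged 6.81 ± 0.39 (SD, n = 3) for the arterial samples and 6.72 ± 0.14 (SD, n = 3) for the venous ones. The difference was 0.08 with a standard error of 0.175 (limma, two-sided p = 0.684, adjusted p = 1, exact permutation p within rats = 0.75), or 1.06-fold, and its 95% interval reached from 0.655-fold to 1.71-fold. For rno-miR-29b-3p the means were 4.00 ± 0.63 (SD, n = 3) and 3.72 ± 0.37 (SD, n = 3). The difference was 0.28 with a standard error of 0.209 (limma p = 0.296, adjusted p = 1, exact p = 0.5), or 1.22-fold, with an interval from 0.687-fold to 2.16-fold. For rno-miR-29c-3p they were 4.82 ± 0.49 (SD, n = 3) and 4.52 ± 0.46 (SD, n = 3). The difference was 0.29 with a standard error of 0.310 (limma p = 0.434, adjusted p = 1, exact p = 0.5), or 1.23-fold, with an interval from 0.525-fold to 2.87-fold. The size depended on the processing. In the authors' quantile-normalized table the log2 differences were 0.03, 0.08 and 0.13 for the a, b and c members. With normexp on the median spot intensity they were 0.07, 0.06 and 0.10, and without normalization between arrays 0.52, 0.69 and 0.77. Leaving out 1 rat also moved the differences of the main fit. For the a, b and c members the log2 differences were -0.062, 0.19 and 0.13 without rat 2. They were 0.02, 0.14 and 0.11 without rat 3, and 0.20, 0.55 and 0.67 without rat 1. In the limma fit without rat 1, adjusted p = 0.671 for the a member, adjusted p = 0.782 for the b member and adjusted p = 0.910 for the c member. The 95% intervals were then 0.07 to 0.33, 0.07 to 1.02 and -0.01 to 1.36 on the log2 scale, and those of the a and b members no longer included 0, as held for 41 of all 758 microRNAs (5.41%) in that fit. None of the 3 members passed the cutoff, while over the array the calls at the cutoff rose to 17 with more signal in arterial and 11 with more in venous plasma. Rat 1 was the rat in which the members had the opposite sign.

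None of the 3 members passed the study's unadjusted cutoff of 0.025. Over the whole array 6 of 758 microRNAs did (0.792%), of which 4 had more signal in arterial plasma (0.528%) and 2 more in venous (0.264%). At an adjusted p of 0.05 limma called 0, and an unadjusted p of 0.05 was met by 12 (1.58%), again with none of the 3 members among them. Of the 758, 557 were detected on no array. Among the 126 detected on every array, the cutoff of 0.025 was passed by 1 with more signal in arterial plasma and 2 with more in venous. The split of 4 and 2 became 4 and 1 without normalization between arrays, 4 and 5 with scaling to the 75th percentile of the microRNAs detected on every array, and 2 and 2 with that of all microRNAs. The exact permutation tests could not fall below a two-sided p of 0.25 with 3 pairs.

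Within each rat the members differed in the same direction. In rat 1 all 3 were lower in arterial than in venous plasma, by -0.28, -0.14 and -0.35 on the normalized log2 scale for the a, b and c members. In rat 2 all 3 were higher in arterial plasma, by 0.30, 0.39 and 0.55. In rat 3 they were also higher, by 0.23, 0.60 and 0.69. The sign of the difference thus divided rat 1 from rats 2 and 3 for each member, and no member had the same sign in all 3 rats. Among the 126 microRNAs detected on every array, 21 (16.7%) shared this pattern of signs and 25 (19.8%) had the same sign in all 3 rats. The groups did not overlap for 6 of the 126 (4.76%), and for 0 of the 3 members.

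**Figure D3:**
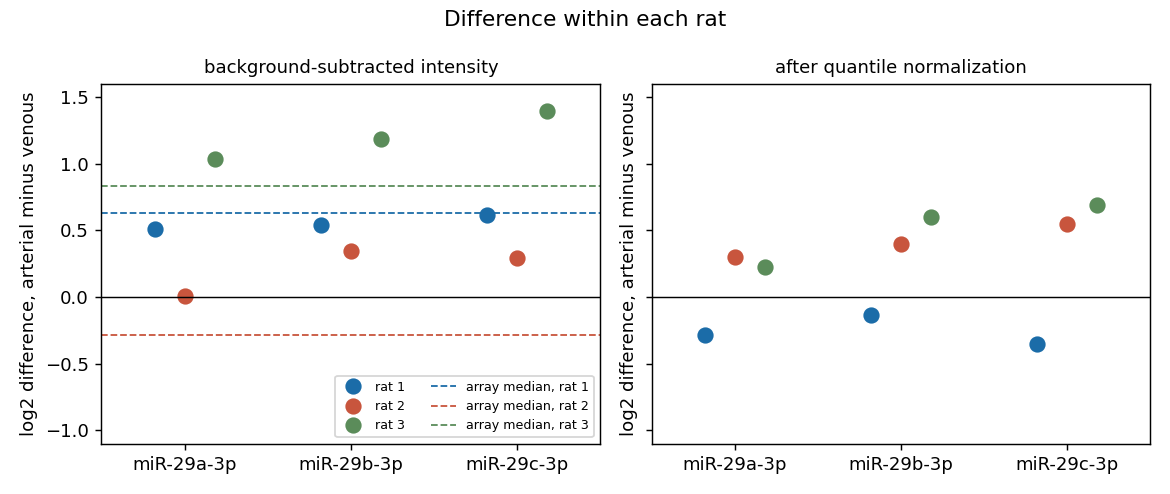
Log2 difference, arterial minus venous, of each member in each rat, in background-subtracted intensity and after quantile normalization; dashed lines give the median difference over the 126 microRNAs detected on every array. Before normalization the differences lie between 0.01 and 1.39, and after it those of rat 1 are below 0 and those of rats 2 and 3 above.

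The direction in rat 1 depended on the scale used. It was 0.51, 0.54 and 0.62 for the a, b and c members before normalization. Relative to the array median it was -0.12, -0.10 and -0.01, and after quantile normalization -0.28, -0.14 and -0.35. In rats 2 and 3 the differences were at or above 0 on all 3 scales. In the authors' quantile-normalized table, which keeps the background, rno-miR-29a-3p read 140 in arterial and 157 in venous plasma of rat 1, 223 and 195 in rat 2, and 168 and 160 in rat 3. There rno-miR-29b-3p read 48.6 and 47.9 in rat 1, 64.0 and 55.1 in rat 2, and 59.1 and 59.1 in rat 3. For rno-miR-29c-3p it gave 62.4 and 62.8, 89.4 and 73.2, and 70.5 and 64.8. That table has a row for each probe, and these readings are means of 2 probes computed here. In rat 1 both probes of rno-miR-29a-3p read lower in arterial plasma, while the probes of the other two members disagreed in direction. For rno-miR-29b-3p they read 44.6 and 52.7 in arterial against 46.4 and 49.3 in venous plasma, and for rno-miR-29c-3p 64.3 and 60.5 against 58.8 and 66.8, so that the table gives no direction for these members in rat 1. In rat 3 the probes of rno-miR-29b-3p disagreed as well, with 49.8 and 68.5 in arterial against 49.5 and 68.7 in venous plasma.

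In background-subtracted intensity, though not throughout the authors' table, the probes of a member gave like differences. The log2 difference of the 2 probes of rno-miR-29a-3p was 0.50 and 0.52 in rat 1, -0.00329 and 0.00872 in rat 2, and 0.95 and 1.07 in rat 3. For rno-miR-29b-3p the probes gave 0.46 and 0.57 in rat 1, 0.25 and 0.40 in rat 2, and 1.22 and 1.17 in rat 3. For rno-miR-29c-3p they gave 0.61 and 0.62, 0.27 and 0.31, and 1.25 and 1.52. Both probes of a member thus had the same sign in each rat, except for rno-miR-29a-3p in rat 2, where both were within 0.01 of 0. The dimmer probe of rno-miR-29b-3p had no spot well above background in the arterial plasma of rat 1 or the venous plasma of rats 1 and 3, so that there its readings of 8.02, 5.83 and 4.30 are close to background, as is the value of the member that includes them.

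**Figure D4:**
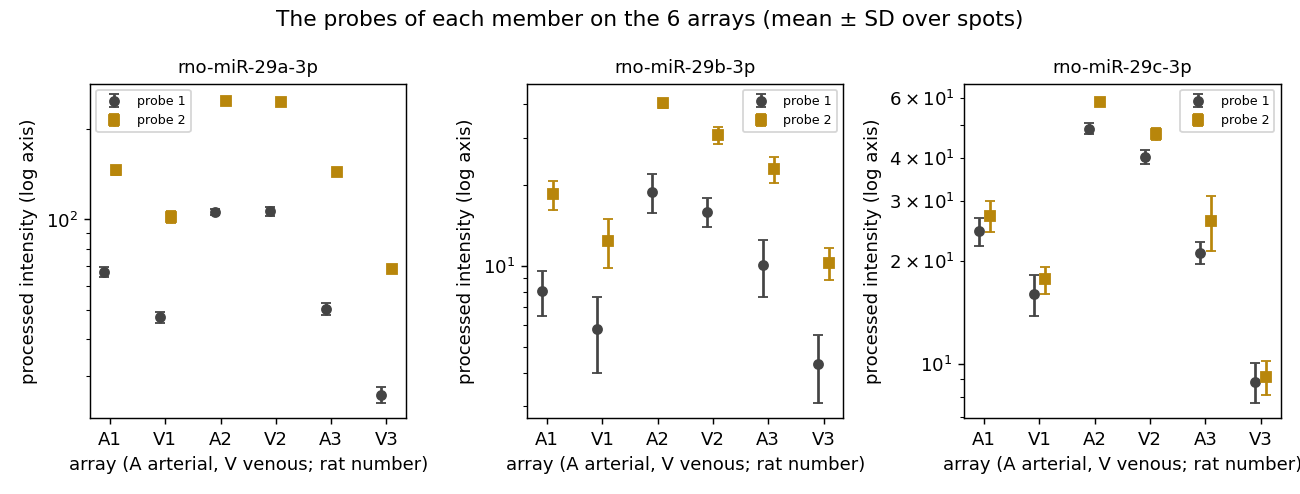
Background-subtracted intensity (log axis) of both probes of each member on each array, as mean ± SD over the spots kept. Rat 2 is brightest in both plasma types, and the venous array of rat 3 (V3) is the dimmest for each probe.

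The arterial minus venous differences of the members were compared in 3 pairs, by exact tests that could not pass the cutoff with 3 rats. The arterial minus venous difference of rno-miR-29b-3p exceeded that of rno-miR-29a-3p by 0.20 ± 0.15 (SD, n = 3 rats), with the same sign in each rat (exact permutation p = 0.25). For rno-miR-29c-3p against rno-miR-29a-3p the excess was 0.21 ± 0.27 (SD, n = 3 rats; exact p = 0.5), and for rno-miR-29c-3p against rno-miR-29b-3p it was 0.01 ± 0.20 (SD, n = 3 rats; exact p = 1). With 3 rats none of these tests could fall below 0.25, before or after adjustment over the pairs.

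The members were also compared between rats. Averaged over both plasma types, rno-miR-29a-3p had a normalized log2 intensity of 6.55, 7.03 and 6.72 in rats 1, 2 and 3. For rno-miR-29b-3p these means were 3.37, 4.33 and 3.87, and for rno-miR-29c-3p they were 4.58, 5.09 and 4.33. Rat 2 was the highest for each member, rat 1 the lowest for the a and b members and rat 3 the lowest for the c member. Both arrays of rat 3 were on a slide of their own, and the part of the slide in this comparison was not tested. The highest and lowest rat differed by 0.48, 0.96 and 0.76, against a median range of 0.71 for the 126 always-detected microRNAs. These ranges were 1.38, 1.26 and 1.73 without normalization between arrays, 0.18, 0.50 and 0.18 without rat 2, and 0.24, 0.50 and 0.83 without rat 1. None of the 3 members passed the cutoff in the limma F test between rats (adjusted p = 1 for rno-miR-29a-3p, adjusted p = 0.875 for rno-miR-29b-3p and adjusted p = 1 for rno-miR-29c-3p), where 26 of 758 microRNAs did (3.43%). At an adjusted p of 0.05 there were 0 in limma, and an unadjusted p of 0.05 was met by 58 (7.65%), none of them a member. In a limma fit of only the 126 detected on every array, 31 passed the cutoff, and none of the 3 members did. The F test there gave rno-miR-29b-3p an unadjusted p of 0.0368 (adjusted p = 0.116). On the authors' table the cutoff was passed by all 3 members (adjusted p = 0.0946 for the a member, adjusted p = 0.108 for the b member and adjusted p = 0.112 for the c member), as it was by 158 of 758 microRNAs (20.8%). Without rat 1, rno-miR-29a-3p passed it (adjusted p = 0.417), beside 41 of 758 microRNAs (5.41%). That fit compares rat 2 with rat 3, which were on different slides, so that rat and slide cannot be told apart in it.

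Across the 126 microRNAs detected on every array, no member was among the most changed, and rno-miR-29a-3p was among the more stable. The size of the difference between plasma types was smaller than that of rno-miR-29a-3p for 27.0% of the 126, than that of rno-miR-29b-3p for 68.3%, and than that of rno-miR-29c-3p for 71.4%. The SD of the a, b and c members over the 6 arrays was 0.26, 0.49 and 0.46, beside a median of 0.43. It was smaller than theirs for 19.0%, 61.9% and 54.0% of the 126.

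The normalized values of the members were positively correlated over the 6 arrays, which come from 3 rats and share their normalization. Pearson correlations, given as a description, were 0.941 between rno-miR-29a-3p and rno-miR-29b-3p, 0.831 between rno-miR-29a-3p and rno-miR-29c-3p and 0.729 between rno-miR-29b-3p and rno-miR-29c-3p. Over all 7750 pairs of microRNAs that were detected on every array and varied, the median was 0.00188 and the quartiles were -0.474 and 0.475. The members were not each other's nearest neighbours: rno-miR-29b-3p was the fourth of 124 for rno-miR-29a-3p, and rno-miR-29c-3p ranked 28 of 124 for rno-miR-29b-3p.

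Outside the family, the patterns most like rno-miR-29a-3p were those of rno-miR-30c-5p (r = 0.956), which acts on connective tissue growth factor, rno-miR-26b-5p (r = 0.947) and rno-miR-22-3p (r = 0.942), a microRNA abundant in heart and skeletal muscle. Nearest to rno-miR-29b-3p were rno-let-7c-5p (r = 0.994), rno-miR-23b-3p (r = 0.989) and rno-miR-26b-5p (r = 0.988). Nearest to rno-miR-29c-3p were rno-miR-130a-3p (r = 0.964), rno-miR-27b-3p (r = 0.913) and rno-miR-10a-5p (r = 0.885), which lies in a Hox gene cluster. Of these 8 microRNAs, rno-miR-10a-5p was higher in arterial plasma in all 3 rats, by 0.14, 1.02 and 0.48, while the others were lower in arterial plasma of rat 1 and higher in that of rats 2 and 3, as the members were. These microRNAs were chosen for likeness over the same 6 arrays, so that a shared pattern of signs comes with the choice. Correlations over 6 arrays from 3 rats are imprecise, and their order carries little weight.

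Other microRNAs known to act on matrix genes or fibrosis gave no call either. Of a list of 14, all on the array, 9 were detected on all arrays and 2 (rno-miR-133a-3p and rno-miR-101a-3p) on none. None of the 14 passed the cutoff in either direction or an adjusted p of 0.05 (limma), beside 0.792% of all microRNAs at the cutoff. Of the 126 detected on every array, 1 passed the cutoff with more signal in arterial plasma and 2 with more in venous. The median log2 difference of the 9 was -0.00278, and -0.00405 over all 126 detected on every array. In rats 1, 2 and 3 the median of the 9 was -0.31, 0.08 and 0.22, beside -0.13, 0 and 0.02 over the 126. The 2 with the lowest p among those detected on every array were rno-miR-214-3p, made from a transcript shared with miR-199a, with a log2 difference of -0.08 (standard error 0.0800, limma adjusted p = 1), and rno-miR-145-5p, of vascular smooth muscle, with 0.08 (standard error 0.190, limma adjusted p = 1). Without normalization between arrays rno-miR-214-3p read 0.34, under the median shift of 0.40 of the microRNAs detected on every array. The best known of the list, rno-miR-21-5p, which is raised in cardiac fibroblasts under stress, read 0.01 (standard error 0.211, limma adjusted p = 1), with -0.40, 0.07 and 0.36 in rats 1, 2 and 3. It is named for that role and outside the rule for named microRNAs.

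Markers of cells that plasma can carry RNA from also varied within rats. The medians given here are of normalized log2 differences, and the sums are of background-subtracted intensity before normalization between arrays. The sums thus carry the brightness of each array, with a median over the 126 from 17.2 (venous plasma, rat 3) to 52.9 (venous plasma, rat 2). Of the erythrocyte list 5 of 6 were detected on every array, with a median log2 difference of -0.24, -0.45 and 0.23 in rats 1, 2 and 3 and a summed intensity of 2437 to 2751 in arterial and 924 to 3884 in venous plasma. Of the platelet and leukocyte list all 5 were, with medians of -0.22, -0.40 and 0.54 and sums of 713 to 828 and 451 to 1034. Of the liver list 2 of 3 were (rno-miR-194-5p was detected on none), with medians of -0.46, 0.82 and 0.26 and sums of 91.3 to 703 and 65.6 to 372. Of the muscle list 1 of 6 was (rno-miR-1-3p, rno-miR-133a-3p, rno-miR-208a-3p and rno-miR-499-5p were detected on none), with 0.12, 0.12 and -0.03 for that 1, rno-miR-133b-3p, and sums of 19.9 to 40.2 and 14.7 to 26.6. Within each blood cell list the microRNAs differed from one another in sign in rat 3. No list had a member past the cutoff in limma, beside 0.792% of all microRNAs. Of the 126 detected on every array, 1 passed it with more signal in arterial plasma and 2 with more in venous. The part of the listed cells in the values of the miR-29 members was not tested.

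**Figure D5:**
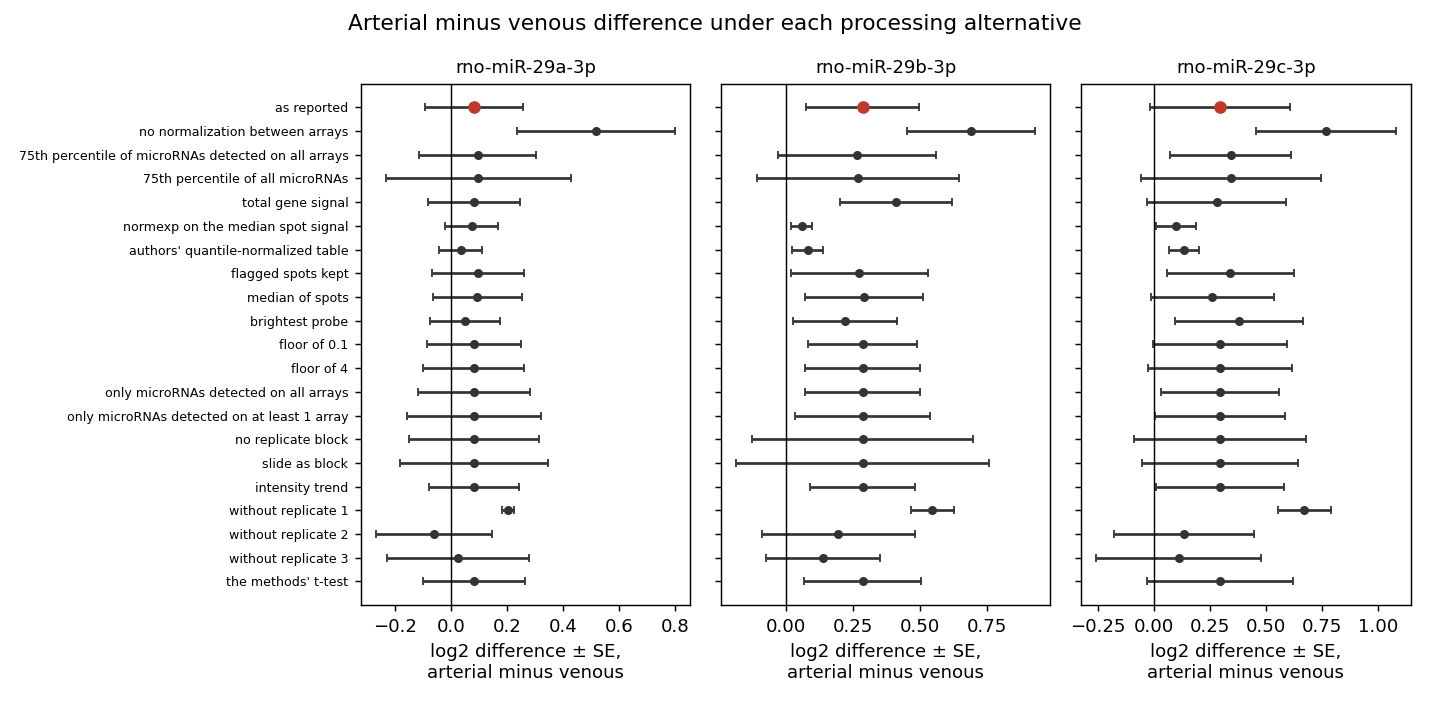
Log2 difference (arterial minus venous) ± SE of each member as reported and under each of 20 processing alternatives. In 8 alternatives the difference itself cannot change, only its error or the microRNAs tested. Of the 36 values from the other 12, 35 are above 0, the exception being rno-miR-29a-3p without rat 2 (-0.06), and none of all 60 passed the cutoff of 0.025.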

How the data were processed

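Per the labels and file headers, the authors hybridized 1 single-colour (Cy3) Agilent Rat miRNA array per plasma sample and deposited spot intensities from Agilent Feature Extraction (11.0.1.1 in the labels, 10.7.3.1 in the file headers), background-subtracted and not normalized between arrays. They also deposited a table of linear intensities, quantile normalized in GeneSpring, for all 1806 probes. From the spot files, controls and outlier-flagged spots (8.72 to 10.4% of an array) were dropped, and processed intensities were averaged first by probe and then by microRNA. Quantile normalization across the 6 arrays used all 758 microRNAs, and log2 was taken after raising lower values to a floor of 1. Averaging on the linear scale lets the brighter probe weigh more.

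The comparisons used limma (version 3.58.1, R version 4.3.3, functions lmFit and eBayes, two-sided) with the rat as block, at an unadjusted p of 0.025, the study's cutoff, and a Benjamini-Hochberg adjusted p of 0.05 over all 758. The prior of limma carried 0.198 degrees of freedom. Intervals are limma's, at 95%. Rats were compared with an F test in the same fit. The pairing is by animal, as the paper states. Deviations from the group means over 126 microRNAs correlated by 0.799, 0.686 and 0.635 between the samples of rats 1, 2 and 3. Between samples of different rats they correlated by -0.733 to -0.0118. Deviations from a group mean sum to 0, so that positive values within rats bring negative ones between rats. Rat 3 also had a slide of its own. Exact tests and figures used Python 3.11.15. Only the limma fit was tried on simulated data, with added differences larger than those of the members. Background handling, spot averaging and quantile normalization were not simulated. Precision is limited by there being 6 arrays.

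The members and lists were chosen with earlier results of these data known. Named microRNAs are the members, the other arms, the 3 most similar patterns per member, and the 2 matrix microRNAs with the lowest p, apart from those said to be exceptions. Alternatives changed the scaling, intensity, summary, floor, filter, block, test and rats used. Sequences and positions are RefSeq's for GRCr8. The array design was annotated on another assembly. The sequences of the array probes were not used here.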

Additional observations from a re-analysis of the deposited data

How the results depend on the processing

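Of 20 alternatives, of which 8 leave the differences as they are by construction, 17 kept all rats and gave log2 differences of 0.03 to 0.52 for rno-miR-29a-3p, 0.06 to 0.69 for rno-miR-29b-3p and 0.10 to 0.77 for rno-miR-29c-3p. None of the 60 member values passed the cutoff of 0.025 (limma or the methods' t-test, lowest unadjusted p 0.0257, adjusted p 0.464 to 1). The highest differences came without normalization between arrays, where the median over the 126 microRNAs detected on every array moved from -0.00405 to 0.40. With 1 rat left out they were -0.062 to 0.20, 0.14 to 0.55 and 0.11 to 0.67 for the a, b and c members, the highest without rat 1. The value of rno-miR-29a-3p turned to -0.062 without rat 2. Without the replicate block, standard errors became 0.232, 0.412 and 0.381 at the same differences of 0.08, 0.28 and 0.29.

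Over the whole array, the 4 microRNAs past the cutoff and higher in arterial plasma became 2 with the 75th percentile of all microRNAs, with slide as block and with the methods' t-test, 0 with a floor of 4, 8 with normexp (on the median spot intensity), the authors' table or the brightest probe, 10 with a floor of 0.1, and 9 to 17 with 1 rat left out (17 without rat 1). The 2 higher in venous plasma became 1 without normalization, 5 with the 75th percentile of detected microRNAs or normexp, 4 with the authors' table, flagged spots kept or the median of spots, 0 with only microRNAs detected on all or on at least 1 array, and 9 to 11 with 1 rat left out. An adjusted p of 0.05 was passed by 1 when the fit took those detected on 1 array or more. Between rats, 3 members passed the cutoff in the authors' table, beside 158 of 758 microRNAs, and 0 to 1 with a rat left out, beside 32 to 46. The 26 microRNAs past the cutoff between rats ranged from 12 (floor of 4) to 158 over the alternatives. Of 758, they were 66 under normexp, 53 with a floor of 0.1, 49 with the brightest probe, 43 with limma's intensity trend and 42 with the median of spots. In fits of fewer microRNAs they were 51 of the 201 detected on 1 array or more and 31 of the 126 detected on every array. The members' ranges between rats fell to 0.32, 0.18 and 0.29 with normexp, and were 0.49, 0.30 and 0.37 in the authors' table and 0.37, 0.64 and 0.72 with the 75th percentile of detected microRNAs. Of the 2 matrix microRNAs named, rno-miR-214-3p turned to 0.34 without normalization (beside the median shift of 0.40) and ranged from -0.18 (without rat 2) to -0.02 (without rat 3) with a rat left out, and rno-miR-145-5p ranged from -0.12 (without rat 1) to 0.25 with a rat left out and from 0.02 to 0.49 (without normalization) with all rats. The causes were not tested.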

Other observations

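The strongest reading from a 5p arm of the miR-29 hairpins was a single spot. On the venous array of rat 2, 1 of 16 spots of rno-miR-29c-5p read 1459, where the median of the 16 was 2.67. Feature Extraction marked it as a population outlier, and it was left out of the values above, which gave 2.5 for that array. With flagged spots kept, the same array would read 94.2, and the other 5 arrays 0.650 to 1.48. A second flagged spot on that array read 15.4. No other array had a spot of this arm well above background, and the microRNA was called detected on none. Of the other 5p arms, 1 unflagged spot of rno-miR-29b-5p read 15.3, on the venous array of rat 1.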
